A study of Mus musculus with 6 samples.

Results

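The miRNAs described here are the mature miRNAs of a mouse kidney data set whose name carries a number of 3000 or more, which places them among the late entries of the miRBase registry. They were taken from the names in the deposited expression table. The 5 such names whose rows lie in the large miRNA clusters of chromosomes 12 and 2 were left out. Where a name had several genomic copies, the row with the highest total was kept. This gave 333 of the 1034 distinct names, against 606 names numbered below 1000 and 69 numbered from 1000 up to that limit. The names just on each side of the limit are miR-1983, with a mean of 613.5 TPM, and miR-3057-5p and miR-3057-3p, with means of 9.78 and 0.935 TPM. The rule for the members uses names and positions, and levels only to pick 1 row among the copies of a name.

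The study sequenced small RNA of nephron progenitors, the mesenchymal cells that give rise to all segments of the nephron, from E14.5 embryos and newborn (P0) pups. Each stage had 3 libraries, each from one litter of CD1 mice, an outbred strain, and the labels name no transgene or treatment. Up to 24 kidneys of a litter were pooled, digested for 15 minutes with collagenase A and pancreatin, and the released cells were selected on magnetic beads with antibodies to Itga8, a surface integrin of these progenitors. Total RNA (miRNeasy) went into single-end QIAseq miRNA libraries. Six2 and Itga8, which define the cells, are messenger RNAs, so a miRNA table cannot test the label. In bulk samples, fewer cells of a type and less RNA per cell cannot be told apart.

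A canonical miRNA is cut from a hairpin in its primary transcript by Drosha and Dgcr8, then by Dicer, and one strand guides an Argonaute protein through its seed, the bases 2 to 8. Some hairpins bypass Drosha: a mirtron is a short intron whose ends are made by splicing, and some small RNAs come from small nucleolar RNAs (snoRNAs), which guide the chemical modification of other RNAs. Many miRNAs entered the registry late because deep sequencing found them at low level, and annotations of this kind include mirtrons and pieces of other small RNAs.

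The mature sequences below, from RefSeq on build GRCm38.p6, are those on which the results turn, written 5′ to 3′ with the seed in capitals. Mature sequences were matched for 298 of the 333 members. The first 3 lie within annotated snoRNA genes, the next 2 form the hairpin in Dgcr8, and the others are members that differed between the stages.

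miR-5121: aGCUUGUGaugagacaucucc
miR-3535: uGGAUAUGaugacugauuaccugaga
miR-3084-5p: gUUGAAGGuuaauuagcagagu
miR-3618-5p: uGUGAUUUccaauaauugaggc
miR-3618-3p: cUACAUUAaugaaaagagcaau
miR-5100: uCGAAUCCcagcggugccucu
miR-6399: uUGCAAUGaugguauucugagg
miR-6944-3p: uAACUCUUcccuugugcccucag
miR-7068-5p: gUGAGGCUcaguauggggugg
miR-7068-3p: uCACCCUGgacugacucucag

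Seeds were rarely shared. The 298 sequences held 288 distinct seeds, 10 seeds occurred in 2 members each, and 9 members had a seed that a miRNA outside the members also carries. Of these 9, miR-6240 shares its seed with miR-330-3p, and miR-6967-5p and miR-7016-5p share theirs with miR-149-3p. Among the members shown, miR-7068-3p shares its seed with miR-7018-3p.

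Levels are in TPM, reads per base of mature miRNA, scaled to the same total in every library. The value of 1 read could be recovered from the steps of the table, which gave 2649506, 23691028 and 5128723 reads in E14.5 replicates 1 to 3 and 34934526, 22263624 and 21508833 reads in P0 replicates 1 to 3. A count of 3 reads on a miRNA with a 21-base span corresponded to 1.14, 0.127 and 0.587 TPM at E14.5 and to 0.0863, 0.135 and 0.140 TPM at P0. These floors cover counting error only. On the first principal component of all tested miRNAs, P0 replicate 1 lay at 1.14, between the E14.5 libraries at −26.2 to −16.2 and the other P0 libraries at 33.2 and 33.5. Stage results of the named members are therefore also given without it where that changes a call, in TPM or after median-of-ratios scaling, a second normalisation that sets the typical miRNA near equal levels. Leaving it out keeps only P0 replicates 2 and 3, those farthest from the E14.5 libraries, and so favours a call. Over all tested miRNAs the calls in TPM then rose from 229 to 420. Marker miRNAs of other cell types were present in all 6 libraries and none was at 0. The summed level of 5 epithelial miRNAs of the miR-200 family was 4122 to 23183 TPM at E14.5 and 500.2 to 1542 TPM at P0, that of 2 endothelial miR-126a arms 26608 to 44921 and 5634 to 8158 TPM, and that of 5 stromal miRNAs 21600 to 34385 and 7475 to 14471 TPM. The part of these cells in the results was not tested.

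Most members were rare and were seen in some libraries only. At least 1 read was present for 183, 265 and 156 members in E14.5 replicates 1 to 3 and for 264, 187 and 158 members in P0 replicates 1 to 3, which is 46.8% to 79.6% of the 333. The high counts came from E14.5 replicate 2 and P0 replicate 1, one library of each stage, and the stages overlapped. At a common depth of 2649506 reads, the expected counts were 183, 219 and 147 at E14.5 and 172, 155 and 137 at P0. At least 10 reads were present for 46, 211 and 95 members at E14.5 and for 167, 149 and 135 at P0. A read in all 6 libraries was found for 67 members, at least 10 reads in all 6 for 33, and a read in a single library for 33. No read in any E14.5 library was listed for 45 members, and the most reads that any of these had in a P0 library was 70. No read in any P0 library was listed for 25 members, with at most 43 reads in an E14.5 library.

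**Figure D1:**
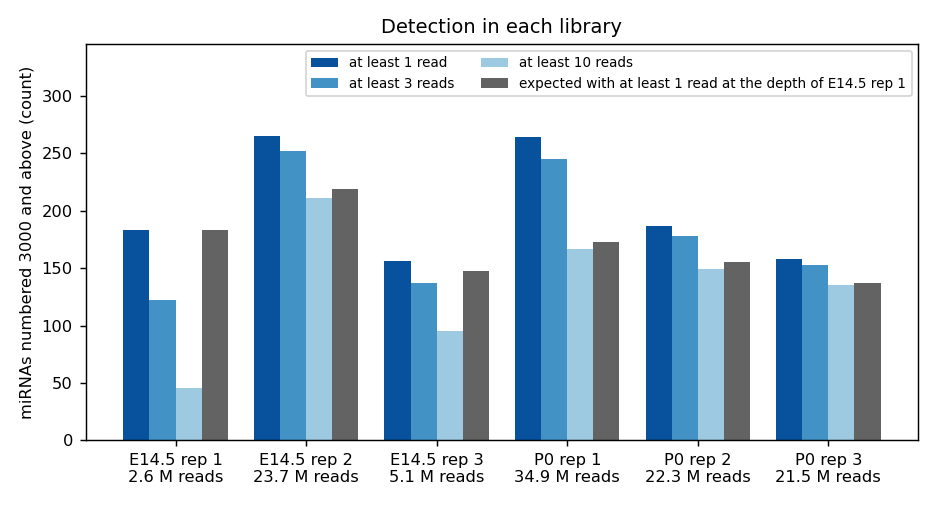
Number of miRNAs numbered 3000 and above detected in each library at 3 read minimums (blue bars) and expected with at least 1 read at the depth of the shallowest library (grey bars), for E14.5 and P0 replicates 1 to 3. E14.5 replicate 2 and P0 replicate 1 reach 265 and 264 members, and the remaining libraries 156 to 187.

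The members were detected less completely than lower-numbered miRNAs. A read in all 6 libraries was found for 20.1% of the members, 31.9% of the miRNAs numbered from 1000 up to the limit and 72.3% of those numbered below 1000. The median of the mean level was 0.487 TPM for the members, against 1.19 and 26.8 TPM in the other ranges. A mean of at least 1 TPM was reached by 105 members, at least 10 TPM by 18 and at least 100 TPM by 6. The median G and C content of the mature sequences was 54.5%, the same as in the range just below the members, and 47.6% below number 1000.

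A single miRNA held a large share of the summed level. Added up over the members, the level in E14.5 replicates 1 to 3 was 7917, 8602 and 10340 TPM, and in P0 replicates 1 to 3 it was 5898, 31804 and 22270 TPM, which is 0.590% to 3.18% of all TPM. In TPM, P0 replicates 2 and 3 were above all other libraries and P0 replicate 1 was below them. After median-of-ratios scaling all P0 libraries were above all E14.5 libraries, at 6725, 60235 and 39273 against 5237, 5855 and 6031. Without miR-5121 the sums were 5503, 4389 and 6115 TPM at E14.5 and 2945, 5824 and 5533 TPM at P0, and the stages overlapped. The share of miR-5121 in the sum was 30.5%, 49.0% and 40.9% at E14.5 and 50.1%, 81.7% and 75.2% at P0.

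The members were grouped by the GENCODE M21 annotation around each mature miRNA. A snoRNA or small Cajal body RNA (scaRNA) gene on the same strand overlapped 12 of them by at least 10 bases. For 168 others the hairpin ended within 2 bases of an end of an intron of the host gene. Another 87 lay elsewhere in an intron of a host on the same strand, and 30 had no host on the same strand. The remaining 36 overlapped an exon of a host on the same strand in at least 1 of its transcripts, and are counted as exonic here. Hairpins at an intron end set the members apart in count: counting 1 that also overlaps a small RNA gene, they made up 50.8% of the members, 10.1% of the miRNAs in the range just below and 1.49% of those numbered below 1000. Overlap with a snoRNA or scaRNA gene was found for 3.60%, 11.6% and 0.660% in the same order.

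**Figure D2:**
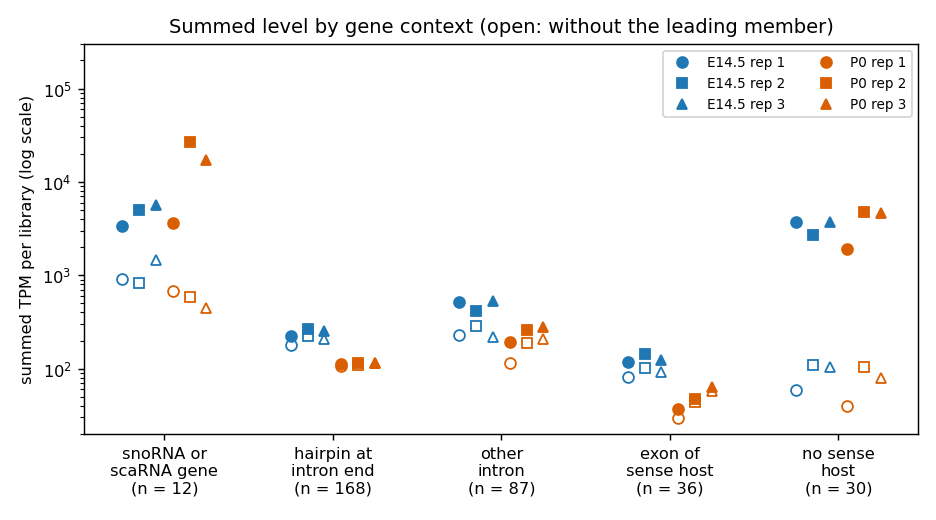
Summed level of the members of each gene context in TPM (log scale) in E14.5 libraries (blue) and P0 libraries (orange), with the most abundant member of the context (filled) and without it (open). The 12 members in snoRNA or scaRNA genes reach 26570 and 17188 TPM in P0 replicates 2 and 3, and 589.6 and 450.7 TPM once miR-5121 is left out.

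The 12 members in snoRNA or scaRNA genes included 4 of the 6 most abundant members, and their median level of 3.37 TPM was above that of the other contexts at 0.432 to 0.673 TPM. They summed to 3330, 5048 and 5675 TPM at E14.5 and to 3636, 26570 and 17188 TPM at P0. Without miR-5121 the sums were 915.9, 835.2 and 1450 TPM at E14.5 and 683.5, 589.6 and 450.7 TPM at P0. These small sums did not overlap between the stages in TPM, and they did after median-of-ratios scaling, at 568.4 to 845.7 and 779.4 to 1117. From a count table, a piece of the snoRNA and a miRNA of the same sequence cannot be told apart.

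The sequences of 2 of these snoRNA genes show where the members lie. They are GENCODE transcripts on GRCm38 in DNA letters, 5′ to 3′, with the member in capitals. Snord33 is at chr7:45126864-45126947 on the minus strand, and the snoRNA gene Gm24148 at chr1:86352008-86352087 on the minus strand.

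Snord33: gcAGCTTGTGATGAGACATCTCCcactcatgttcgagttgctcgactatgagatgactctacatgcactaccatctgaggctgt
Gm24148: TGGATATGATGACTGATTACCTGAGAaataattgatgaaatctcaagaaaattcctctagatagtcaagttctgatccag

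miR-5121 lies near the 5′ end of Snord33, a box C/D snoRNA in an intron of Rpl13a, a gene of the large ribosomal subunit, at chr7:45126925-45126945. Its level was 2414, 4213 and 4225 TPM in E14.5 replicates 1 to 3 and 2953, 25980 and 16737 TPM in P0 replicates 1 to 3. In TPM, P0 replicates 2 and 3 were above every other library, while P0 replicate 1 lay within the E14.5 range. After median-of-ratios scaling P0 replicate 1 was above every E14.5 library as well. The means were 3617 ± 1042 TPM at E14.5 and 15223 ± 11588 TPM at P0 (SD, n = 3), and the log2 fold change of 1.63 (SE 0.70) did not pass in limma over all 670 tested miRNAs (adjusted p = 0.0818), nor did the value of 2.92 after median-of-ratios scaling (adjusted p = 0.0529). Without P0 replicate 1 it was 2.57, with an adjusted p of 6.85e-05 in limma, and 4.09 with median-of-ratios scaling. Without P0 replicate 2 or 3 it was 1.01 or 1.32 in TPM and did not pass (adjusted p = 0.302 and 0.205 in limma). The authors' deposited table gives a log2 fold change of 2.99 and an adjusted p of 0.00082 for miR-5121.

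miR-3535 fills the 5′ end of Gm24148, a snoRNA in an intron of Ncl, which encodes the nucleolar protein nucleolin, at chr1:86352062-86352087. Its level was 420.7, 403.7 and 611.9 TPM at E14.5 and 350.1, 471.1 and 333.8 TPM at P0. The stages overlapped, and the log2 fold change of −0.30 did not pass in limma (adjusted p = 0.631). Its direction turned under median-of-ratios scaling, at 0.98 (adjusted p = 0.155), and without P0 replicate 1 as well it became a call higher at P0, at 1.26 (adjusted p = 0.00990).

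The miR-3084 and miR-3068 arms also come from snoRNA genes. miR-3084-5p lies in Snora19, a box H/ACA snoRNA in an intron of the translation initiation gene Eif3a, at chr19:60774370-60774391. Its level was 226.0, 138.2 and 427.6 TPM at E14.5 and 123.0, 9.23 and 4.84 TPM at P0. All P0 libraries were below all E14.5 libraries, P0 replicate 1 closely so. The log2 fold change of −3.61 (SE 0.96) passed in limma (adjusted p = 0.0143) and was the most negative among the called members. With median-of-ratios scaling it was −2.39 and did not pass (adjusted p = 0.0922), but passed on that scale without P0 replicate 1 (−3.53, adjusted p = 0.00103). In TPM, leaving out 1 library gave log2 fold changes of −4.95 to −2.74 for miR-3084-5p. Only the fit without E14.5 replicate 3 did not pass (−3.19, adjusted p = 0.0805 in limma). Its other arm, miR-3084-3p, was at 6.76, 0.802 and 11.5 TPM at E14.5 and 2.29, 0 and 1.56 TPM at P0, and did not pass (adjusted p = 0.137 in limma) unless E14.5 replicate 2 was left out (−2.27, adjusted p = 0.0473).

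miR-3068-5p lies at chr12:87437724-87437747 in a gene that GENCODE names Mir3068 and classes as a snoRNA, in an intron of Alkbh1, a nucleic acid demethylase gene. Its level was 232.3, 240.7 and 351.6 TPM at E14.5 and 169.3, 99.1 and 98.9 TPM at P0. The stages did not overlap, but the log2 fold change of −1.18 did not pass in limma (adjusted p = 0.0978), and with median-of-ratios scaling it was 0.10. Without P0 replicate 1 it was −1.44 and passed (adjusted p = 0.00374 in limma). The 3p arm was at 21.2, 39.1 and 29.8 TPM at E14.5 and 34.8, 7.25 and 4.38 TPM at P0, so that P0 replicate 1 was within the E14.5 range. It did not pass (−1.37, adjusted p = 0.147 in limma), but did without that library (−2.18, adjusted p = 0.00302). The 5p arm exceeded the 3p arm in all 6 libraries for both hairpins, 8.74-fold in the mean for miR-3068 and 40.5-fold for miR-3084.

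The 168 members at an intron end were the most numerous and among the least abundant. They belonged to 122 hairpin genes and had a median level of 0.449 TPM. Only 15 of them came from hairpins that reach both ends of the intron, as a classical mirtron does, and 153 from hairpins that reach one end. The shortest annotated intron that holds the member had a median length of 344.5 bases, and for 66 members it was shorter than 200 bases. Together they summed to 223.2, 266.1 and 253.1 TPM at E14.5 and 111.1, 114.1 and 116.2 TPM at P0. In TPM the stages did not overlap, while with median-of-ratios scaling P0 replicates 2 and 3 were above all E14.5 libraries, at 216.1 and 205.0 against 147.6 to 181.1, and P0 replicate 1 was below them all at 126.7.

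Introns begin with GU and end in AG, so a position at the 3′ end of an intron fixes the last letters of a 3p arm. Of the 3p arms at an intron end with a sequence, 66 of 81 (81.5%) ended in AG, against 7 of 73 5p arms (9.59%). The share was 12.3% for the 3p arms of other members and 7.19% for miRNAs numbered below 1000. At the other end, 3 of the 73 5p arms began with GU, and 3 of 48 5p arms of other members.

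A pair of hairpins fill an intron exactly and so carry both ends. The hairpin of miR-7068 is the whole 74-base intron of Cherp, which encodes a calcium homeostasis protein of the endoplasmic reticulum, at chr8:72470016-72470089 on the minus strand. The hairpin of miR-6944 is the whole 96-base intron of Dbn1, which encodes the actin-binding protein drebrin, at chr13:55477681-55477776 on the minus strand. Both are RefSeq hairpins on GRCm38.p6 in RNA letters with the mature members in capitals. Both begin with gu and end in ag, the letters of splice sites.

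Mir7068: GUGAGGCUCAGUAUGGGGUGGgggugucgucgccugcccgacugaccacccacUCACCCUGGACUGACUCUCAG
Mir6944: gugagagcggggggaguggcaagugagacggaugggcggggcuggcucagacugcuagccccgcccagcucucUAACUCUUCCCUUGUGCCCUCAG

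miR-6944-3p was at 41.9, 41.6 and 46.2 TPM at E14.5 and at 4.12, 5.67 and 2.62 TPM at P0. All 3 P0 libraries, replicate 1 included, were far below the E14.5 libraries, which were close together. The means were 43.2 ± 2.56 and 4.14 ± 1.52 TPM (SD, n = 3), and miR-6944-3p fell by 3.15 on the log2 scale (SE 0.56, adjusted p = 0.00400 in limma). With median-of-ratios scaling it fell by 1.99 (adjusted p = 0.0461).

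Both arms of the Cherp intron were lower at P0. Both were picked out after their values were seen. miR-7068-5p was at 11.1, 13.0 and 9.87 TPM at E14.5 and 1.24, 0.331 and 0 TPM at P0, on 28, 291 and 48 reads against 41, 7 and 0. It fell by 3.09 on the log2 scale (SE 0.55, adjusted p = 0.00400 in limma), and by 2.38 with median-of-ratios scaling (adjusted p = 0.0314). Its P0 mean was under 1 TPM, so miR-7068-5p passed the filter of 1 TPM only through E14.5, and no support is drawn from its test. miR-7068-3p was at 17.5, 13.9 and 10.3 TPM at E14.5 and 3.14, 2.03 and 1.95 TPM at P0. It fell by 2.13 on the log2 scale (adjusted p = 0.0128), but not past the threshold with median-of-ratios scaling (−1.07, adjusted p = 0.177) or without E14.5 replicate 1 (−1.96, adjusted p = 0.0649). Neither arm overlapped between the stages, and the 3p arm was the higher one in all 6 libraries, 1.37-fold in the mean.

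Of the 5 called members elsewhere in introns, 2 had a mean of at least 10 TPM. miR-6399, in an intron of the translation initiation gene Eif4g3 at chr4:138163263-138163284, was at 26.9, 38.1 and 30.7 TPM at E14.5 and 5.58, 1.13 and 1.86 TPM at P0. All P0 libraries were below all E14.5 libraries. It fell by 3.25 on the log2 scale (SE 0.61, adjusted p = 0.00441 in limma), and by 2.20 with median-of-ratios scaling (adjusted p = 0.0401). miR-5100, in an intron of the mitochondrial gene Mief2 at chr11:60728698-60728718, was at 284.6, 125.1 and 311.2 TPM at E14.5 and 76.1, 71.4 and 71.9 TPM at P0. The P0 libraries were close together and below all E14.5 libraries, of which replicate 2 was the lowest. It fell by 1.60 (SE 0.56, adjusted p = 0.0450), and passed in 2 of the 6 fits that each left out a library, those without E14.5 replicate 2 or P0 replicate 1. In the other 4 the adjusted p was 0.121 to 0.189, and it was at −0.32 with median-of-ratios scaling (adjusted p = 0.679).

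Of the 10 most abundant members, 3 others in introns of a host on the same strand did not pass in either direction when all 6 libraries were used. miR-3099-3p lies in an intron of Usp29, an imprinted gene, at chr7:6803638-6803659, and was at 15.5, 37.0 and 26.2 TPM at E14.5 and 12.4, 69.8 and 57.5 TPM at P0. P0 replicates 2 and 3 were the highest libraries and P0 replicate 1 the lowest, and the log2 fold change was 0.57 (adjusted p = 0.523 in limma). Without P0 replicate 1 it was 1.32 and passed (adjusted p = 0.0291), as it did after median-of-ratios scaling without that library (2.79, adjusted p = 0.00174). miR-3066-5p, in an intron of Nol10 at chr12:17355404-17355425, was at 26.1, 21.3 and 32.9 TPM at E14.5 and 13.9, 31.2 and 35.7 TPM at P0, and its log2 fold change was −0.07 for TPM and 1.17 after median-of-ratios scaling. On that scale and without P0 replicate 1 it was 1.80 and passed, higher at P0 (adjusted p = 0.00624). Its 3p arm had at most 3.01 TPM, and the 5p arm was 23.3-fold higher in the mean. miR-6539, in an intron of Dock5 at chr14:67859699-67859722, was at 18.0, 64.1 and 8.76 TPM at E14.5 and 29.7, 10.3 and 13.5 TPM at P0. E14.5 replicate 2 was the highest library, and the stages overlapped.

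Of the 4 called members in exons, 2 were the arms of miR-3618. The hairpin lies in the exonic 5′ untranslated region of Dgcr8, whose protein binds miRNA hairpins for Drosha. miR-3618-5p at chr16:18284602-18284623 was at 36.7, 40.9 and 29.8 TPM at E14.5 and 7.36, 3.42 and 5.07 TPM at P0. miR-3618-3p at chr16:18284562-18284583 was at 34.8, 40.2 and 26.2 TPM at E14.5 and 7.71, 4.55 and 5.17 TPM at P0. The arms were within 1.04-fold of each other in the mean, each the higher one in 3 libraries, and neither overlapped between the stages. The 5p arm fell by 2.59 on the log2 scale (SE 0.57, adjusted p = 0.00658 in limma) and the 3p arm by 2.36 (SE 0.56, adjusted p = 0.00899). With median-of-ratios scaling they were at −1.42 and −1.18 and did not pass (adjusted p = 0.0892 and 0.141). On that scale and without P0 replicate 1 the 5p arm passed (−1.46, adjusted p = 0.0284) and the 3p arm did not (−1.18, adjusted p = 0.0599).

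The members without a host on the same strand were led by miR-5099, at chr12:36816250-36816269. It was at 3676, 2623 and 3658 TPM at E14.5 and 1882, 4707 and 4545 TPM at P0. P0 replicate 1 was the lowest library and P0 replicates 2 and 3 the highest, with a log2 fold change of 0.06 (adjusted p = 0.933 in limma). With median-of-ratios scaling it was 1.35 (adjusted p = 0.126), and 2.01 without P0 replicate 1 (adjusted p = 0.000588). The 29 others of this context summed to 40.3 to 109.9 TPM. Among them, miR-6239, which lies opposite an intron of Gpc6 at chr14:117953768-117953787, was at 12.1, 47.6 and 49.8 TPM at E14.5 and 9.06, 27.7 and 23.9 TPM at P0, and did not pass (adjusted p = 0.409).

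One member above 10 TPM lies on the strand opposite another miRNA. miR-3074-5p, in an intron of Fancc, a DNA repair gene, at chr13:63301249-63301270 on the minus strand, overlaps miR-24-3p on the plus strand by 20 bases. The strand setting of the read counting is not given in the sources used here, so reads of the pair may not be told apart. The sequences are each other's reverse complement over the shared bases.

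miR-3074-5p: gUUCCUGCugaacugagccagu
miR-24-3p: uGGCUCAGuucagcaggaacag

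The level of miR-3074-5p was 23.9, 21.1 and 21.7 TPM at E14.5 and 9.06, 26.6 and 14.7 TPM at P0. miR-24-3p, a widely expressed miRNA, had a mean of 4059 TPM, 208.0-fold that of miR-3074-5p. The member was not called (log2 fold change −0.51, adjusted p = 0.489 in limma), and neither was its partner (−0.39, adjusted p = 0.511). Once P0 replicate 1 was left out and median-of-ratios scaling used, miR-3074-5p was called higher at P0 (1.29, adjusted p = 0.0436). miR-3074-1-3p and miR-3065-5p also lie opposite a miRNA, miR-24-1-5p and miR-338-3p, which were 8.15-fold and 63.3-fold higher in the mean. miR-24-1-5p was called lower at P0 (−2.45, adjusted p = 0.0235 in limma). miR-3074-1-3p was at −1.26 and did not pass (adjusted p = 0.0754), but did without P0 replicate 1 (−1.46, adjusted p = 0.0366).

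Both arms of 74 hairpins were among the members, leaving out miR-5615 and miR-6967, whose 5p and 3p rows are at different loci or strands. At least 1 TPM on an arm was reached by 32 of them, and the 3p arm was the higher one in 16. It was the higher one in 12 of the 18 hairpins at an intron end, while the 5p arm was in 10 of the 14 others. Extremes were miR-6988 in the first group, with a 3p arm 45.5-fold higher in the mean, and miR-3084 in the second. No test was made of this difference, since arms of one hairpin share their source.

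**Figure D3:**
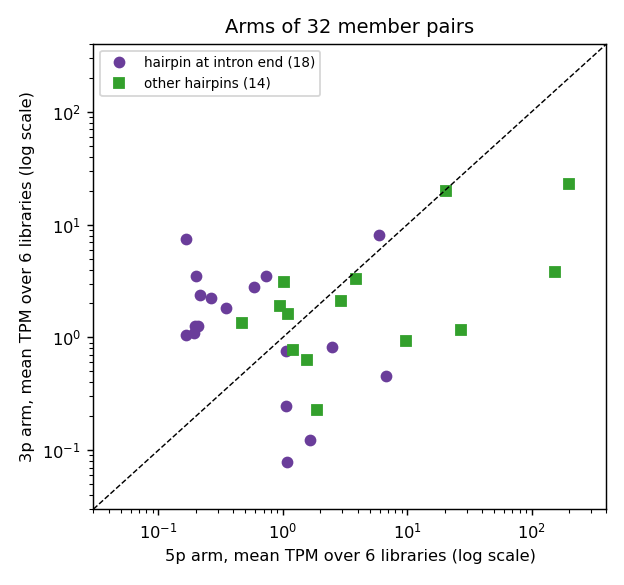
Mean TPM over the 6 libraries of the 3p arm against the 5p arm for the 32 hairpins with both arms among the members and at least 1 TPM on an arm (log axes, dashed line at equal levels). Hairpins at an intron end lie above the line in 12 of 18 cases and other hairpins below it in 10 of 14.

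The stage comparison asked which members differed between mid-gestation and birth. In TPM, 18 of the 105 tested members (17.1%) had an adjusted p under 0.05 in limma, all of them lower at P0. Over all 670 tested miRNAs 34.2% were called, 32.8% lower and 1.34% higher. Of the 18, 8 had a P0 mean under 1 TPM and so passed the filter only through E14.5, and no support is drawn from the count. Of the 105 members tested, 48 had fewer than 3 reads in at least one library. The median log2 fold change of the 105 was −0.77, against −1.20 over all tested miRNAs, and 84 of the 105 were negative. The stages did not overlap for 33 members (31.4%), all lower at P0, against 49.6% of all tested miRNAs. A mean under 1 TPM at 1 stage was found for 45 of the 105, which passed the filter only through the other stage. No support is drawn from the 84 or the 33.

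Besides the 8 called members described above, the other 10 had means under 10 TPM. They were miR-5123 (B4galt1), miR-3064-5p (Ddx5), miR-6967-3p (Kifc1), miR-3572-3p (Cnot3), miR-5101 (Syne2), miR-3058-3p (Nudt4), miR-6900-3p (Ndufa10), miR-3061-3p (Ppp2ca), miR-3102-5p.2-5p (Arhgef17) and miR-7685-5p, with the host gene in parentheses where there is one. By context, the called members were 7 of 42 tested at an intron end, 5 of 28 in other introns, 4 of 13 in exons, 1 of 10 in snoRNA or scaRNA genes and 1 of 12 without a host. These counts include the calls that passed the filter only through E14.5, so no support is drawn from them. The share of any one context was not tested against another.

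**Figure D4:**
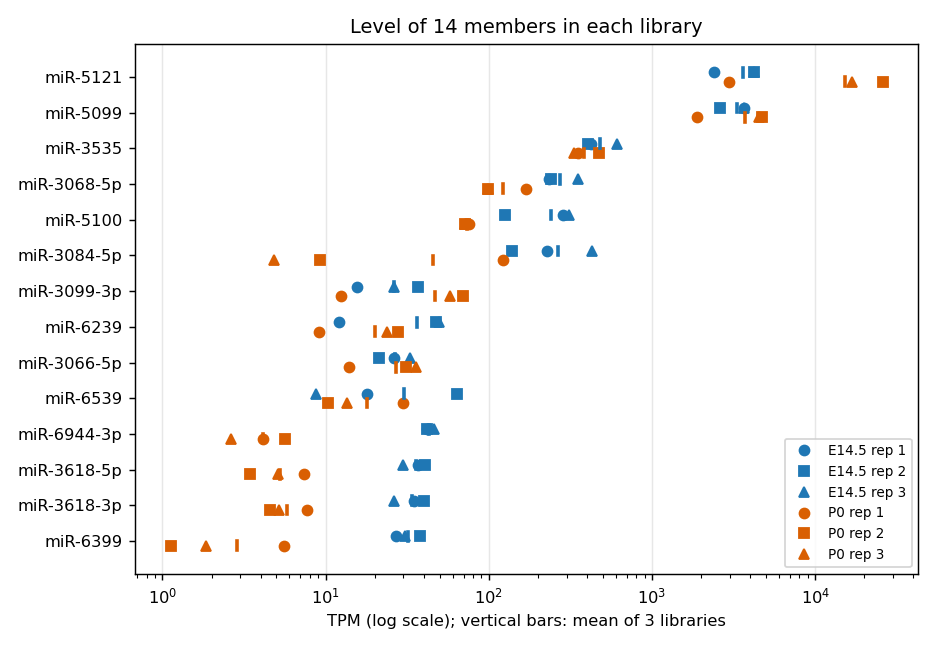
TPM (log axis) of 14 members in each E14.5 library (blue) and P0 library (orange), with stage means as vertical bars: the 10 most abundant and those called with a mean of at least 10 TPM. miR-5121 in P0 replicates 2 and 3 stands at 25980 and 16737 TPM, and miR-6944-3p at 2.62 to 5.67 TPM in all P0 libraries.

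The direction of the members as a group depended on the scaling. TPM moved the median of all tested miRNAs to −1.20, while median-of-ratios scaling put it at −0.17. On that scale the median of the members was −0.01, with 53 negative and 52 positive, and 3 were called where 10.9% of all tested miRNAs were, 5.22% lower and 5.67% higher. These 3, all lower at P0, were miR-6944-3p, miR-6399 and miR-7068-5p. Of them, miR-7068-5p had a P0 mean under 1 TPM and passed the filter only through E14.5, so no support is drawn from its call.

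**Figure D5:**
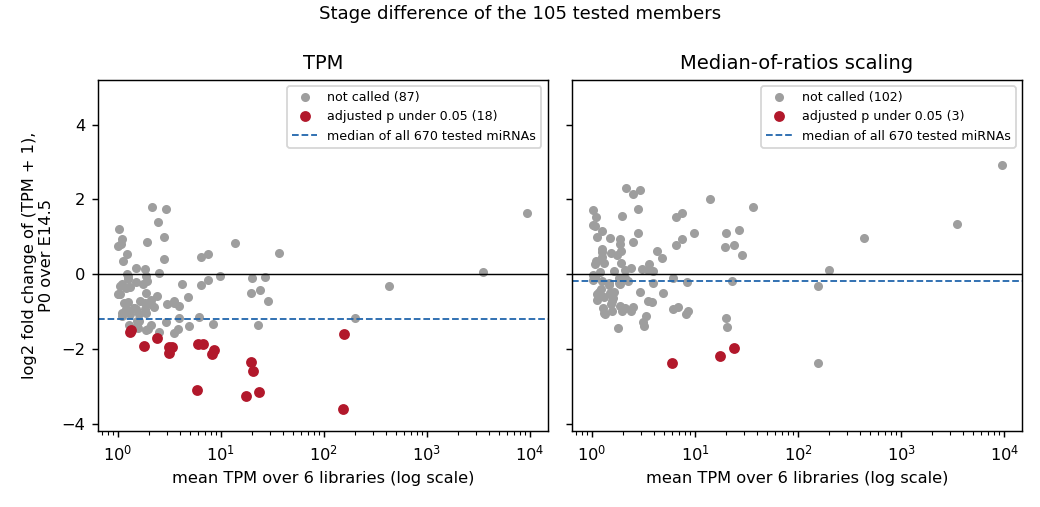
Log2 fold change between P0 and E14.5 of the 105 tested members against their mean TPM over 6 libraries (log axis), in TPM (left) and after median-of-ratios scaling (right); red points have an adjusted p under 0.05 and the dashed line is the median of all 670 tested miRNAs. In TPM 18 members are red and 84 are below 0, and after scaling 3 are red and 53 are below 0.

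Single libraries moved these counts. Without E14.5 replicate 1, 2 or 3 the members called were 6 of 109, 15 of 99 and 6 of 109 tested, where 16.8%, 23.9% and 10.8% of all tested miRNAs were called. Without P0 replicate 2 or 3 they were 7 of 108 and 10 of 103, where 16.9% and 19.9% of all were, and without P0 replicate 1 they were 44 of 116. Without P0 replicate 1, 11 members were higher and 33 lower in limma, where 61.0% of all tested miRNAs were called, 7.98% higher and 53.0% lower, and the 18 members called with all libraries remained called. With median-of-ratios scaling as well, 25 were higher and 11 lower, where 48.0% of all tested miRNAs were called, 22.5% higher and 25.5% lower. The 11 higher members were higher under both scalings. Of these 11, 7 had an E14.5 mean under 1 TPM and so reached the filter only through P0, which fixes their direction, and no support is drawn from their number. The 4 others were miR-5121, miR-3099-3p, miR-3970 and miR-7658-5p.

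The authors' deposited table has 9 members with an adjusted p under 0.05, 6 higher and 3 lower at P0, where 10.4% of all names in that table are called. The 3 lower ones in the authors' deposited table are miR-6944-3p, miR-6399 and miR-7068-5p, at log2 fold changes of −2.31, −2.71 and −4.59. The 6 higher ones in the authors' deposited table are miR-5121, miR-5099, miR-3970, miR-6538, miR-5108 and miR-3473g. The last 3 had few reads, and these 3 and miR-3970 were chosen for description after their values were seen. miR-6538 had 0, 0 and 1 reads at E14.5 and 4, 27 and 292 reads at P0. miR-5108 had 0, 0 and 1 reads and then 0, 47 and 64, and miR-3473g had 0, 0 and 0 reads and then 2, 38 and 70. For each of the 3, P0 replicates 2 and 3 were above all other libraries, and P0 replicate 1 was close to the E14.5 libraries. miR-3970, at chr19:33157122-33157141, was at 6.28, 11.0 and 10.8 TPM at E14.5 and 9.38, 22.2 and 23.4 TPM at P0, with the same 2 libraries highest. In the limma fit with stage as its only term, none of these 6 passed on all 6 libraries, with adjusted p of 0.103 for miR-6538, 0.125 for miR-5108 and 0.279 for miR-3970, and miR-3473g was under the filter of 1 TPM. Without P0 replicate 1, miR-3970 passed at a log2 fold change of 1.23 (adjusted p = 0.0475 in limma). miR-6538, miR-5108 and miR-3473g reach a mean of 1 TPM, if at all, only through P0 replicates 2 and 3, so their test without P0 replicate 1 is not used.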

How the data were processed

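The authors deposited TPM values per mature miRNA and library with their own comparison (mean signal, log2 fold change, its standard error and statistic score, p-value and adjusted p-value). Per the submitters' processing notes, featureCounts, DESeq2 1.26.0 and build mm10 were used. The aligner, trimming and use of molecular identifiers are not given in the sources used here. Multiplying TPM by the span of each row gave whole multiples of 1 step per library for 100% of values (tolerance 0.001), and these served as reads. The sign of the deposited fold change is not labelled and was read as P0 over E14.5, since it matched the sign of the difference between scaled stage means for 911 of 1034 names and for 108 of the 108 that the authors' table calls.

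Rows of extra genomic copies were collapsed to the highest total, from 340 member rows to 333. Stage differences were fitted in limma 3.58.1 (R 4.3.3), using its trended, moderated variances, to log2(TPM + 1) of the 670 names that had a mean of at least 1 TPM in the 6 libraries. Fold changes on that scale understate those of low miRNAs. Tests were two-sided with Benjamini-Hochberg adjustment over all tested names, called below 0.05, and the fit was tested on simulated data. Libraries come from separate litters. Expected detection at the common depth used the hypergeometric formula.

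Named members were the 10 most abundant, the called ones with a mean of at least 10 TPM, those opposite another miRNA and up to 5 arm pairs at that level. A further 6 members, and the other examples of arms, seeds, opposite strands and called members, were chosen after their values were seen. Arms were paired on one strand within 200 bases. The members and lists were chosen with earlier results of these data known. Alternatives covered scaling, limma-voom on the recovered reads, filters, pseudocount, summed copies, a replicate block and leaving out each library. Median-of-ratios scaling without P0 replicate 1 was added after seeing the data.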

Additional observations from a re-analysis of the deposited data

How the results depend on the processing

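The 18 members called became 3 with median-of-ratios scaling, 9 with limma-voom (182 of 670 over all miRNAs), 6 of the 18 tested with a filter of 10 TPM (173 of 432 over all), 2 with the replicate block and median-of-ratios scaling (1 higher, 1 lower), 36 with median-of-ratios scaling without P0 replicate 1, and 6 to 44 when 1 library was left out. Over all tested miRNAs the 229 calls became 73 with median-of-ratios scaling, 67 with the replicate block and that scaling, and 72 to 420 with 1 library left out. Same-numbered libraries are different litters, and their deviations correlated at 0.19, 0.18 and 0.04, so the numbers were not taken as pairs. The replicate block alone gave 247 calls over all miRNAs, and 18 among members of which 1, miR-5121, was higher (adjusted p = 0.0312 in limma). With the block and median-of-ratios scaling, miR-6399 and miR-6944-3p no longer passed (adjusted p = 0.0579 and 0.0604). Members detected per library averaged 201.3 at E14.5 and 203.0 at P0, and 117.3 and 150.3 at a minimum of 10 reads. Their summed level averaged 8953 TPM at E14.5 and 19991 TPM at P0. It was 5336 and 4767 TPM without miR-5121, and 5707 and 35411 with median-of-ratios scaling. Leaving out 1 library gave 8259 to 9471 TPM at E14.5 and 14084 to 27037 TPM at P0.

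Of the single named results under all alternatives, 271 kept direction and call, 16 passed in addition in the same direction, 23 kept direction but no longer passed, and 24 changed sign, of which 3 also passed. With median-of-ratios scaling, with or without the block, the log2 fold changes that changed sign were 0.98 for miR-3535, 0.10 for miR-3068-5p, 0.51 for miR-6239, 1.17 for miR-3066-5p, 0.78 for miR-6539 and 0.72 for miR-3074-5p. With that scaling and without P0 replicate 1 they were 1.26, 0.066, 1.20, 1.80, 0.57 and 1.29 in the same order, and miR-3535, miR-3066-5p and miR-3074-5p passed, higher at P0 (adjusted p = 0.00990, 0.00624 and 0.0436 in limma). Leaving out 1 library gave −0.17 to 0.50 for miR-5099 (−0.10, −0.17 and −0.14 without E14.5 replicate 2, P0 replicate 2 and P0 replicate 3), −0.32 to 0.33 for miR-3066-5p (0.08 and 0.33 without E14.5 replicate 3 and P0 replicate 1) and −1.04 to 0.33 for miR-6539 (0.33 without E14.5 replicate 2). The cause was not tested. The 3 reads that limit detection range from 0.0863 to 1.14 TPM.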
